A study of Homo sapiens with 47 samples.

Results

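The DLX and MSX genes encode homeodomain transcription factors, and the human genome carries *DLX1* to *DLX6*, *MSX1* and *MSX2*. These 8 genes were followed by their symbols through 47 RNA-seq libraries in which 58051 genes are listed, and all 8 were found. The libraries come from WA09 (H9) cells, an established human embryonic stem cell (hESC) line, that were turned into neuromesodermal progenitor (NMP)-like cells and then passaged. Whole cultures were sequenced undifferentiated in mTESR1 (t0), after 36 h of differentiation (36h) and at passages P1 to P10, from 3 differentiations called r1, r2 and r3, with r1 and r2 only at P9, where an r3 library was not analysed here. From 36h on, all cultures were in N2B27 medium that lacked vitamin A and contained CHIR-99021 (a WNT agonist), rhFGF2, AGN193109 (an inverse agonist of retinoic acid receptors) and Y-27632 (a ROCK inhibitor). At P5 and P8 the epithelial (EPI, labelled neural progenitors) and mesenchymal (MES, labelled neural crest) cells were also enriched by selective detachment, with 3 libraries each. One cell line is the source of all libraries, and the fractions are enriched rather than pure.

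In the embryo, MSX genes act downstream of BMP signalling at the border of the neural plate, in the dorsal neural tube, in the neural crest and in the limb bud. DLX genes are best known from the forebrain, where *DLX1*, *DLX2*, *DLX5* and *DLX6* act in GABAergic neurons, and from the skeleton of the branchial arches and limbs, while *DLX3* and *DLX4* are also used in surface ectoderm and placenta. The DLX genes lie in pairs that are transcribed towards each other and share enhancers. On GRCh38 (GENCODE 29), *DLX1* (ENSG00000144355, chr2:172084740-172089677, plus strand) and *DLX2* (ENSG00000115844, chr2:172099439-172102900, minus strand) are 9761 bases apart. *DLX6* (ENSG00000006377, chr7:97005548-97011039, plus strand) and *DLX5* (ENSG00000105880, chr7:97020392-97024950, minus strand) are 9352 bases apart. *DLX4* (ENSG00000108813, chr17:49968970-49974959, plus strand) and *DLX3* (ENSG00000064195, chr17:49990005-49995224, minus strand) are 15045 bases apart. *MSX1* (ENSG00000163132, chr4:4859666-4863936, plus strand) and *MSX2* (ENSG00000120149, chr5:174724533-174730893, plus strand) stand alone on separate chromosomes.

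The members share the homeobox, the 180 bases that encode the DNA-binding homeodomain. The 51-base stretch around the recognition helix, which contacts DNA, is shown for 7 of them. The sequences are from the coding strand of GENCODE 29 transcripts, 5′ to 3′, and the capitals mark the core of the helix, by whose motif each homeobox was located.
MSX1: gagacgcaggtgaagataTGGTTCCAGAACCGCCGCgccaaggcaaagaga
MSX2: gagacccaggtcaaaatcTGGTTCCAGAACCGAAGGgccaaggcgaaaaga
DLX2: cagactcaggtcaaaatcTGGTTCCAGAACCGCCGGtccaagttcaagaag
DLX3: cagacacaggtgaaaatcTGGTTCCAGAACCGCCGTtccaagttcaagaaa
DLX4: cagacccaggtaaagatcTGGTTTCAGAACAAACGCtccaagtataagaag
DLX5: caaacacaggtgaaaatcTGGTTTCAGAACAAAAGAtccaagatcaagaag
DLX6: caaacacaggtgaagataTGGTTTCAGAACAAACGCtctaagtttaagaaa

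Over the whole homeobox, *MSX1* and *MSX2* were identical at 82.2% of bases, the 15 pairs of DLX genes at 68.3% to 80.6%, and the 12 pairs of a DLX with an MSX gene at 57.2% to 68.9%. The longest run of identical bases between the transcripts of any 2 members was 28, in *MSX1* and *MSX2*, against reads of 75 bases. *MSX2* shared a run of 59 bases with its processed pseudogene *MSX2P1* on chromosome 17, which held 42.5 to 50.8 normalized counts at t0, at most 25.8 at 36h and at most 4.16 in every later group. *DLX6* lies within the antisense transcript *DLX6-AS1* over all of its 5492 bases. Whether counting used the strand is not given in the sources used here, so the reads of *DLX6* and *DLX6-AS1* may be mixed.

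Each library held between 13029491 and 64082859 expected counts, with a median of 47292229. Levels of different genes are compared as TPM, which corrects for transcript length, and tests used normalized counts. The labels were checked against their markers. The hESC markers *POU5F1* and *NANOG* summed to 60563 to 63238 normalized counts at t0 and to at most 4.18 at P10, and the NMP markers *TBXT*, *FST* and *CDX1* summed to 566 to 581 at t0 and 34371 to 74256 at 36h. P10.r1 stood apart from P10.r2 and P10.r3. The pre-neural epithelial markers *SOX2*, *CDX2*, *NKX1-2* and *CDH1* summed to 21184 normalized counts in P10.r1 but to 273 in P10.r2 and 216 in P10.r3, and P10.r1 is left out in turn below. Within r1 the sum fell and then returned, at 32979 in P8.r1, 789 in P9.r1 and 21184 in P10.r1. *MSX2* moved the other way in these libraries, at 13.1, 439 and 27.5 TPM. The cause of this reversal was not tested.

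The 2 families differed in level and in timing. *MSX1* was the most abundant of the 8 genes by mean TPM in each of the 16 groups, although its range overlapped that of the next gene at t0, 36h and P10. At t0 the 8 genes together summed to a mean of 1.83 TPM, of which the MSX genes made up 47.0%. At P5 the sum was 366 TPM with 98.5% from the MSX genes, and at P8 it was 232 TPM with 78.6%, as *DLX5* reached a mean above that of *MSX2*, with overlapping ranges. The sum was highest at P9, at 1200 TPM, of which the MSX genes made up 86.4%. Of the 47 libraries, *MSX1* and *MSX2* reached 1 TPM in 44 each, *DLX5* in 30, *DLX1* in 19, *DLX6* in 14, *DLX2* in 13, *DLX3* in 12 and *DLX4* in 4.

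**Figure D1:**
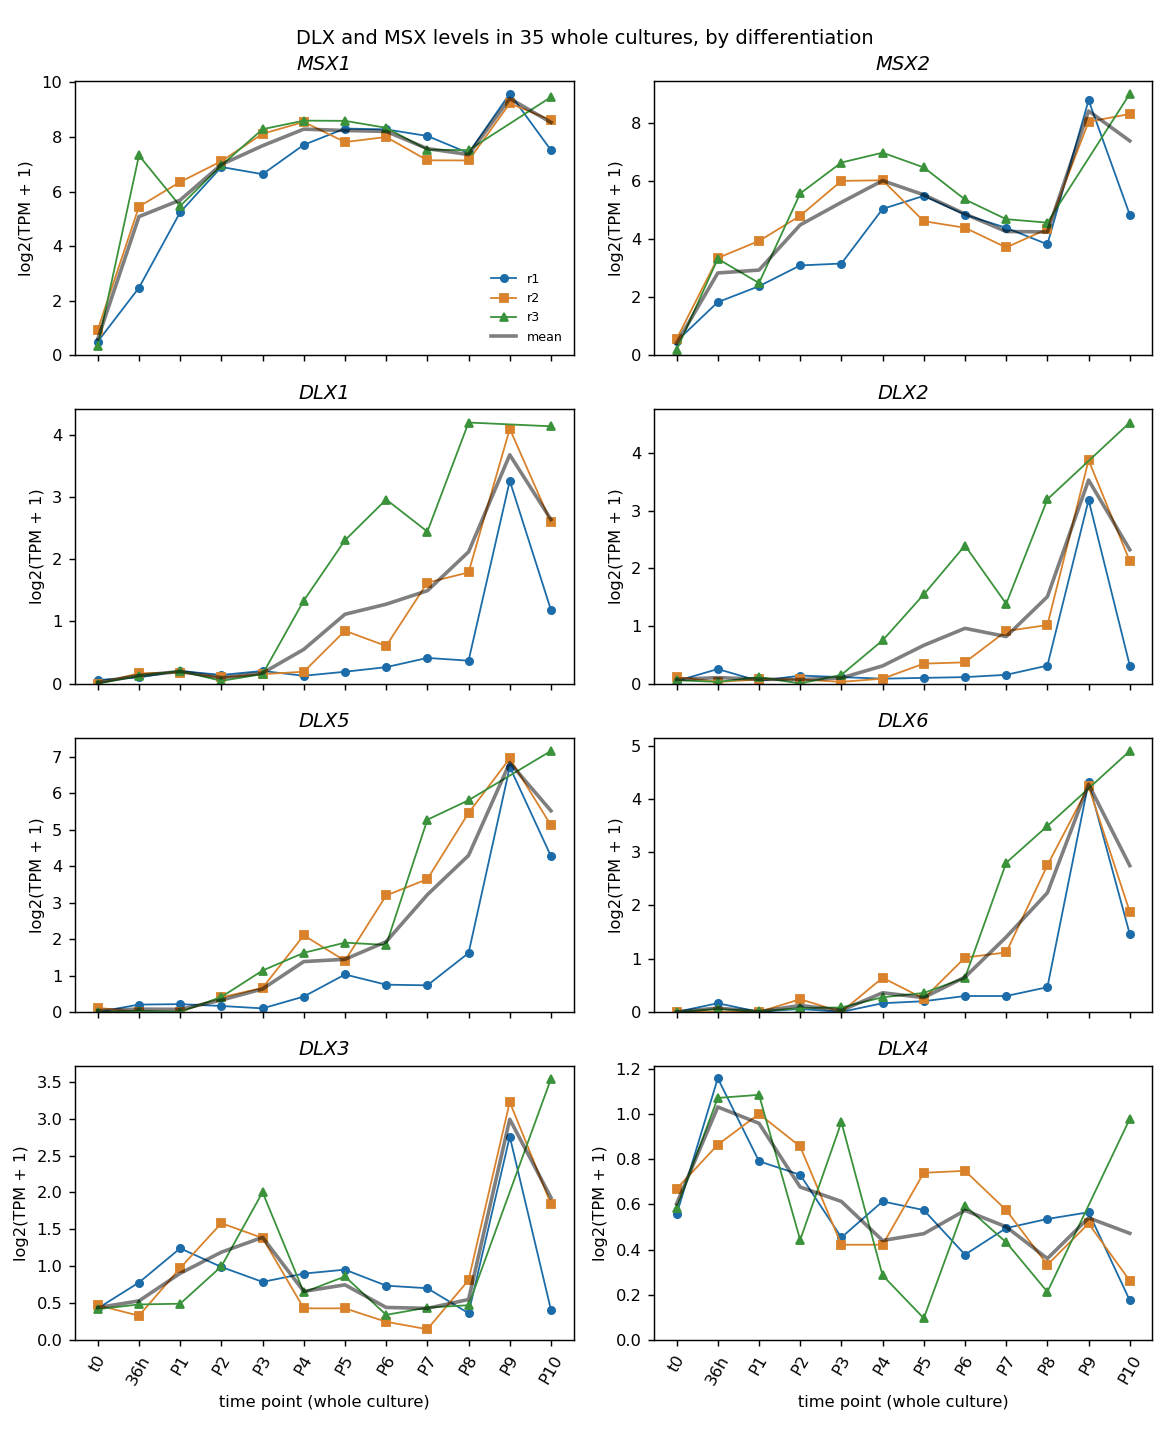
Level of each gene on the y axis, as log2(TPM + 1), in the 35 whole cultures by time point on the x axis. Coloured points and lines are the 3 differentiations and the grey line is their mean, with no r3 library at P9, where the r3 line runs straight from P8 to P10. *MSX1* rose from at most 0.91 TPM at t0 to at least 601 TPM at P9, while *DLX4* stayed at or under 1.23 TPM, and the y axes differ between panels.

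*MSX1* and *MSX2* were the first members to rise. *MSX1* was at 0.41, 0.91 and 0.27 TPM in r1, r2 and r3 at t0 and at 4.54, 42.6 and 159 TPM at 36h. All 36h libraries were above all t0 libraries, but those of 36h spanned a wide range, with r1 lowest and r3 highest. *MSX2* went from 0.39, 0.47 and 0.13 TPM to 2.54, 9.17 and 8.96 TPM, again without overlap and with r1 lowest. In edgeR's quasi-likelihood test, the log2 fold change was 7.21 for *MSX1* (SE 0.85, adjusted p = 3.5e-06) and 4.52 for *MSX2* (SE 0.94, adjusted p = 0.0023). A gene counts as called where its Benjamini-Hochberg adjusted p was under 1%, it changed 2-fold or more and the libraries compared averaged 100 normalized counts or more. Both MSX genes were called as higher, against 2.71% of the 21750 genes tested in either direction, and no DLX gene was. The calls leaned on r2 and r3. Without r2 neither was called (edgeR adjusted p = 0.012 for *MSX1* and 0.10 for *MSX2*), and without r3 only *MSX1* was, while both were missed when the 36h and t0 libraries alone were fitted (edgeR adjusted p = 0.027 and 0.026).

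From 36h to P5 the MSX genes rose further. *MSX1* reached 316, 224 and 385 TPM at P5, and *MSX2* reached 43.8, 23.5 and 87.4 TPM, all above the highest 36h library. The log2 fold changes were 2.27 for *MSX1* (SE 0.64, edgeR adjusted p = 0.0087) and 3.12 for *MSX2* (SE 0.76, edgeR adjusted p = 0.0029). Both were called, with 8.33% of all genes called in this comparison. Neither was called without the differentiation as a block (edgeR adjusted p = 0.023 and 0.013), with the compared libraries alone (edgeR adjusted p = 0.094 and 0.025) or without r2 (edgeR adjusted p = 0.14 and 0.023), and 1 of them was called without r1 (*MSX2*) or without r3 (*MSX1*). *DLX1* and *DLX5* had edgeR adjusted p values of 0.0084 and 0.002 but means of 43.6 and 31.2 normalized counts, below the minimum used here, which is taken over the libraries compared, and with no such minimum both were called.

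Between P5 and P8 the mean levels of both MSX genes were lower and the differences were not called. *MSX1* stood at 169, 140.1 and 182 TPM at P8, below each of the P5 libraries (log2 fold change −0.87, SE 0.61, edgeR adjusted p = 0.58). *MSX2* stood at 13.1, 19.3 and 22.6 TPM, also below each of the P5 libraries (−1.53, SE 0.71, edgeR adjusted p = 0.35). No member was called by edgeR between P8 and P5, where 0.0092% of all genes were called, while 4 of the 8 had an unadjusted p under 0.05, as did 13.3% of all genes, and DESeq2 called 1, *DLX6*, among 155 of 21750 genes.

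The 200 bases from 250 to 51 bases before the RefSeq start of *MSX1* and *MSX2* are shown because these genes moved together over the time course, and that of *DLX6* because it alone of those read holds the SMAD letters below. The sequences are from RefSeq on GRCh38.p14, 5′ to 3′ on the plus strand, which is the strand of the genes. Entries were matched for 5 members, *DLX1*, *DLX2*, *DLX6*, *MSX1* and *MSX2*. Capitals mark matches, on either strand, to TAATT (the core bound by DLX and MSX proteins), CTTTGA (the core bound by TCF and LEF proteins) and GGCGCC (a GC-rich SMAD core).
MSX1, chr4:4859415-4859614: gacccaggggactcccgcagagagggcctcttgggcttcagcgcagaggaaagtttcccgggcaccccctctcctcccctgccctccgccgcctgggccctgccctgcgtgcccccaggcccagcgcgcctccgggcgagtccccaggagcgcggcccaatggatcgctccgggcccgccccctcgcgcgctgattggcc
MSX2, chr5:174724332-174724531: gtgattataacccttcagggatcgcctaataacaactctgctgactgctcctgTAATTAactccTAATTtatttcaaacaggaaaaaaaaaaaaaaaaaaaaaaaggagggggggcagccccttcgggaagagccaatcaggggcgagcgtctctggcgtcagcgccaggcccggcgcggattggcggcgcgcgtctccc
DLX6, chr7:97005303-97005502: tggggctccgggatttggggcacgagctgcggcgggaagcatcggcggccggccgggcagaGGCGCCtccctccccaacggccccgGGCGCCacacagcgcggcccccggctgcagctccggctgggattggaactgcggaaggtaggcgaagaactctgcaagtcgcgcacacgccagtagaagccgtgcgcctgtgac

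*MSX2* held 3 matches to TAATT, a pair of which overlap on opposite strands, and 20.4% of 35116 promoter windows of the same length hold at least 1. *DLX6* held 2 matches to GGCGCC, which 12.7% of the windows hold. CTTTGA, found in 9.39% of windows, and all 3 motifs in the windows of *MSX1*, *DLX1* and *DLX2*, had no match. The *MSX1* window was 75.5% G or C, more than 90.5% of windows, and that of *MSX2* 52%, more than 37.6% of windows. A match of letters is a description of the window only.

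*DLX5* and *DLX6*, neighbours on chromosome 7, were low in early passages and rose over several later ones. *DLX5* was at most 0.33 TPM through P2 and at 0.07, 0.58 and 1.2 TPM at P3. *DLX5* had 2 counts in the 3 t0 libraries together, and at P5 it was at 1.04, 1.65 and 2.74 TPM. At P8 it was at 2.07 TPM in r1 but at 43.2 and 55.3 TPM in the other differentiations, so that r1 lay far below the other libraries. *DLX6* had 0 counts in each of the t0 libraries and was at 0.38, 5.75 and 10.2 TPM in r1, r2 and r3 at P8, which repeats the order seen for *DLX5*. The log2 fold changes from P5 to P8 were 3.65 for *DLX5* (SE 0.87, edgeR adjusted p = 0.064) and 4.16 for *DLX6* (SE 1.01, edgeR adjusted p = 0.071). Leaving out r1, r2 and r3 in turn gave log2 fold changes of 4.67, 2.88 and 3.30 for *DLX5* (edgeR adjusted p = 0.0087, 0.96 and 0.88), so that it was called without r1, the differentiation with the lowest level, and not without r2 or r3.

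*DLX1* and *DLX2*, neighbours on chromosome 2, also rose, and stayed below *DLX5* in mean TPM at P5, P8, P9 and P10. *DLX1* had 2 counts in the t0 libraries together, and at P5 it was at 0.14, 0.80 and 3.94 TPM in r1, r2 and r3. At P8 it was at 0.29, 2.45 and 17.4 TPM, so that r3 was above r2 and r2 above r1 at both passages. *DLX2* followed the same order, with 0.07, 0.27 and 1.92 TPM at P5 and 0.24, 1.02 and 8.17 TPM at P8. The edgeR adjusted p of the change from P5 to P8 was 0.36 for *DLX1* and 0.46 for *DLX2*.

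The order of the differentiations repeated over the 6 time points from P4 to P8 and at P10. Differentiation r1 had the lowest normalized count at all 6 for *DLX1*, *DLX5* and *DLX6*, and r3 had the highest at all 6 for *DLX1*, *DLX2* and *MSX2*. The MSX genes did not share r1 as the lowest throughout. For *MSX1* r2 was lowest at 4 of 6, and for *MSX2* r1 and r2 were each lowest at 3 of 6. *DLX3* and *DLX4* did not share the order either, with r1 highest at 4 of 6 for *DLX3*. The marker sums also differed by differentiation, the epithelial one in the opposite order to *DLX1* and the neural crest one in the same order. At P8 the 4 pre-neural epithelial markers summed to 32979, 13287 and 8528 normalized counts in the 3 differentiations in that order, and the neural crest markers *SNAI1*, *SNAI2*, *SOX9* and *SOX10* to 4930, 14242 and 22447. In these bulk samples fewer cells of a type and less RNA per cell cannot be told apart, and the part of the cell mixture in the DLX levels was not tested.

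*DLX3* and *DLX4*, neighbours on chromosome 17, were low in most libraries. *DLX3*, a gene of epidermis, placenta and teeth, was at 0.35, 0.39 and 0.34 TPM at t0, had a group mean of 1.78 ± 1.15 TPM at P3 (SD, n = 3), and was at 0.29, 0.76 and 0.39 TPM at P8. *DLX4* was highest in 36h.r1, at 1.23 TPM, and had a median of 0.46 TPM over the 47 libraries. Over all time points together, edgeR's F-test gave *DLX4* an adjusted p of 0.17. That test called 6 of the 8 members, *DLX1*, *DLX2*, *DLX5*, *DLX6*, *MSX1* and *MSX2*, while *DLX3* had an edgeR adjusted p of 4.8e-05 with a mean of 86.6 normalized counts. The share of all genes called was 39.1%.

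**Figure D2:**
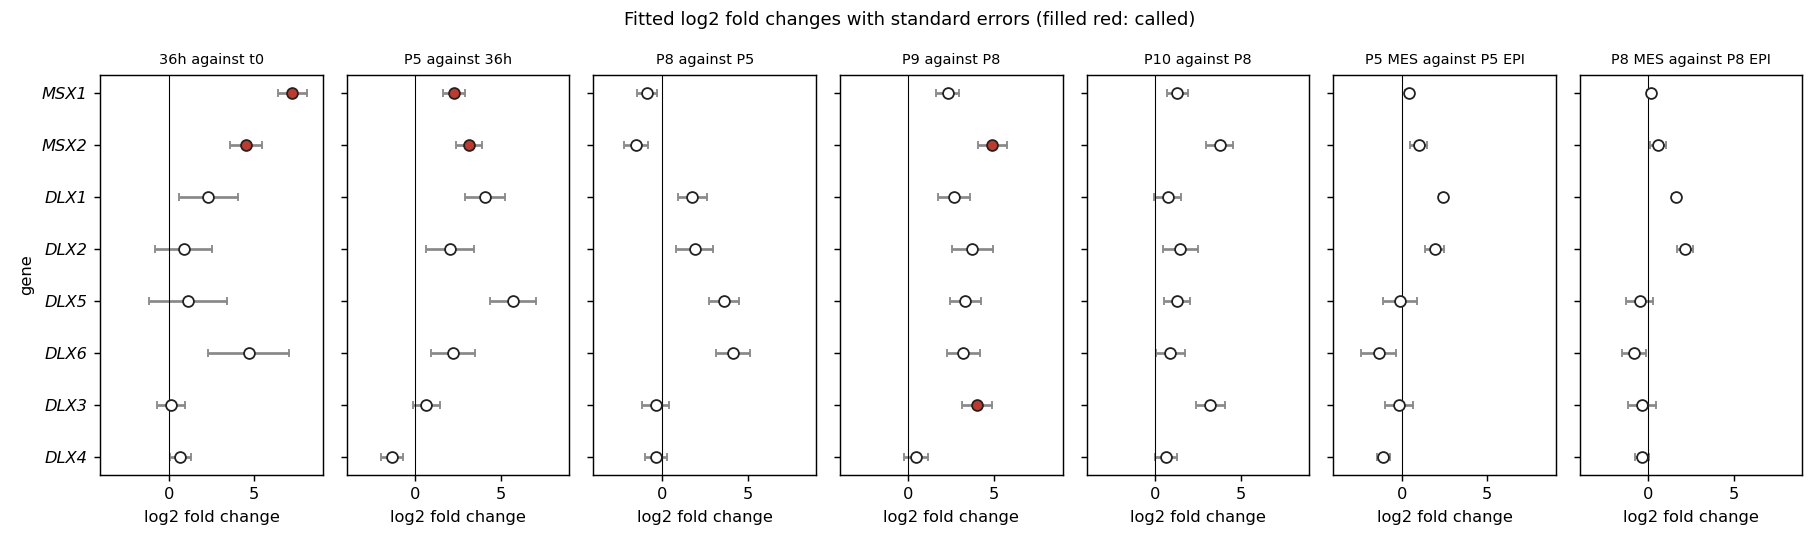
Fitted log2 fold change on the x axis for each gene on the y axis in 7 comparisons, with standard errors as bars. Red points were called by edgeR, namely *MSX1* and *MSX2* in the first 2 panels, *DLX3* and *MSX2* at P9 against P8, and none in the other panels.

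At P9, with libraries of r1 and r2, 7 of the 8 members had their highest mean TPM of the whole cultures, the exception being *DLX4*. *MSX2* was at 439 TPM in P9.r1 and 262 TPM in P9.r2, against 13.1 to 22.6 TPM at P8 (log2 fold change 4.90, SE 0.84, edgeR adjusted p = 0.0022). *DLX3* was at 5.76 and 8.34 TPM, against 0.29 to 0.76 TPM at P8 (log2 fold change 4.00, SE 0.89, edgeR adjusted p = 0.0082). These were the 2 members called, both higher, and 1.22% of all genes were called. The P8 fractions of r3 held more of both genes than any P8 whole culture, though less than the P9 libraries. *MSX2* was at 86.6 TPM in EPI and 136 TPM in MES there, and *DLX3* at 1.40 and 1.83 TPM. *MSX1*, *DLX2*, *DLX5* and *DLX6* had edgeR adjusted p values from 0.022 to 0.048 and log2 fold changes from 2.30 to 3.72. Without the block their log2 fold changes were 2.11 for *MSX1*, 1.86 for *DLX2* and 1.79 for *DLX5* and *DLX6* (edgeR adjusted p = 0.09, 0.49, 0.39 and 0.39). *DLX5* was at 105 TPM in P9.r1 and 124 TPM in P9.r2, so that r1, which was at 2.07 TPM at P8, no longer lay far below r2. Without the block the log2 fold changes were 3.96 for *DLX3* and 4.38 for *MSX2*, but neither was called (edgeR adjusted p = 0.022 and 0.023) and 15 of 21750 genes were. They were also not called with P8 and P9 alone (edgeR adjusted p = 0.11 and 0.073), without r2 (edgeR adjusted p = 0.10 and 0.037) or without r3, which leaves out the P8 library of r3 among others (edgeR adjusted p = 0.076 and 0.05). Leaving out r2 leaves 1 P9 library, which is then assumed to vary like the other groups.

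The ratio of *MSX1* to *MSX2* in TPM differed between these passages. At P8 it was 12.9 for r1, 7.25 for r2 and 8.04 for r3, and 1.76 and 2.29 in r1 and r2 at P9. At P10 the ratio of r1 was 6.63, that of r2 1.24 and that of r3 1.38. The P9 libraries and P10.r2 and P10.r3 lay below all P8 libraries, and P10.r1 lay just below them. In the P8 fractions of r3 it was 3.29 in EPI and 1.80 in MES, below the whole culture of r3 at P8. In those of r1 the ratio was 12.4 in EPI and 10.4 in MES, and in those of r2 it was 8.08 and 6.87.

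**Figure D3:**
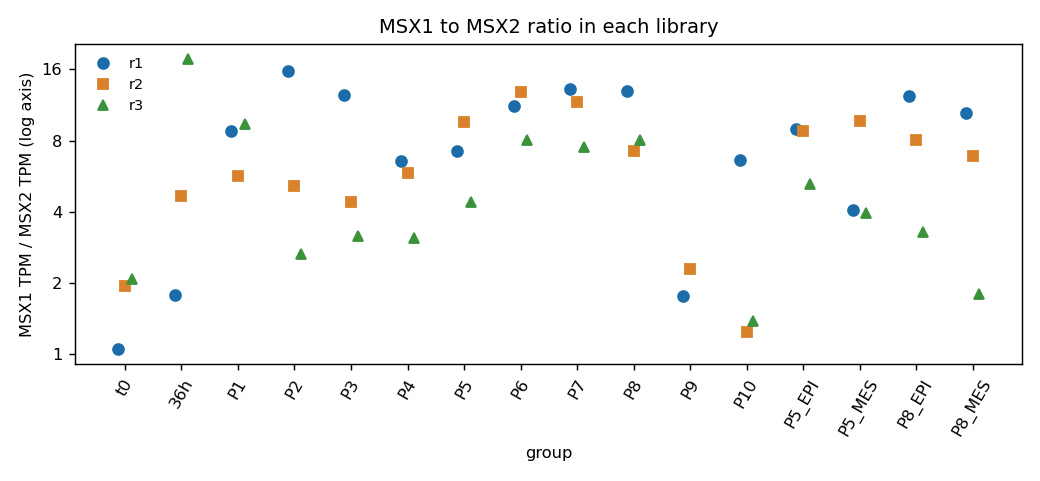
Ratio of *MSX1* to *MSX2* TPM on a log axis in each library, with the groups on the x axis and 1 symbol per differentiation. In the whole cultures from P6 to P8 the ratio was between 7.25 and 13.2, while at P9 it was between 1.76 and 2.29.

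The cell type markers are given beside these values, although none of the 4 pre-neural epithelial and none of the 4 neural crest markers was called between P9 and P8. The pre-neural epithelial markers summed to 789 and 866 normalized counts in the P9 libraries, against 8528 to 32979 at P8, and the 4 neural crest markers to 27457 and 19943, against 4930 to 22447, so that the epithelial sums did not overlap and the crest sums did. The surface ectoderm and placode list of 14 genes, which covers an epithelium where *DLX3* is known to act, summed to 2455 and 2631 at P9 against 6816 to 18928 at P8. That list summed to more at t0, 29156 to 36703, when *DLX3* was at 0.34 to 0.39 TPM, so its sum is no measure of surface ectoderm alone. The part of these cell types in the P9 levels was not tested.

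At P10 the differentiations spread apart. *MSX2* was at 27.5, 316 and 512 TPM in the order r1 to r3, and *MSX1* at 182, 393 and 706 TPM. *DLX3* was at 0.33, 2.59 and 10.6 TPM, so that P10.r1 lay within the P8 range and the other 2 libraries above it. *DLX5* was at 18.4, 33.9 and 143 TPM and *DLX1* at 1.27, 5.03 and 16.6 TPM. Against P8 no member was called by edgeR, while 3 of 8 had an unadjusted p under 0.05 (16.4% of all genes did), and edgeR called 0.0874% of all genes. DESeq2 called *DLX3* and *MSX2* among 307 genes of 21750. The log2 fold changes were 3.78 for *MSX2* (SE 0.77, edgeR adjusted p = 0.016) and 3.22 for *DLX3* (SE 0.84, edgeR adjusted p = 0.044). Without P10.r1 both were called, with log2 fold changes of 4.33 (edgeR adjusted p = 2.8e-04) and 3.86 (edgeR adjusted p = 7.1e-04).

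Over the whole course, from t0 to P10, 7 of the 8 members were called as higher and *DLX4* was not (log2 fold change −0.37, SE 0.63, edgeR adjusted p = 0.64), with 18.3% of all genes called. *MSX1* and *MSX2* had log2 fold changes of 9.91 (SE 0.92, edgeR adjusted p = 7.5e-09) and 9.88 (SE 1.07, edgeR adjusted p = 7.2e-08). *DLX2* and *DLX3* had log2 fold changes of 6.29 and 3.64 (edgeR adjusted p = 7.3e-04 and 9.7e-04), with P10.r3 highest for both, at 22.1 and 10.6 TPM, and without r3 they were 4.55 and 2.12 (edgeR adjusted p = 0.013 and 0.11). The other 3 called members were almost without reads at t0. *DLX6* had 91.1, 149 and 1626 normalized counts in r1, r2 and r3 at P10 and was at least 217-fold higher, taking 3 counts per library as the floor at t0. *DLX1* was 712-fold and *DLX5* 4123-fold higher, with exact 95% counting intervals of 197 to 5881 and 1141 to 34051, which cover counting error only. P10.r3 was far above the other P10 libraries in each of these genes. Without it *DLX6* was at least 41.9-fold, *DLX1* 244-fold and *DLX5* 1500-fold higher, and without P10.r1 *DLX1* was 1084-fold higher, in a comparison chosen after seeing the data. Without r2, *DLX1*, *DLX2* and *DLX3* were not called and 4 members remained, without r3 *DLX6* was not either and 3 remained, and with the compared libraries alone 2 were called (*DLX5* and *MSX1*).

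Set against t0 at each time point in the same fit, the members joined in steps. *MSX1* and *MSX2* were called as higher at all 11 later time points, with 1.33% of all genes called as higher at 36h, 3.42% at P1, 5.89% at P2, 5.8% at P3, 6.22% at P4, 6.44% at P5, 6.68% at P6 and 9.5% at P10. *DLX5* was called from P7 on, *DLX1* and *DLX6* from P8 on, and *DLX2* and *DLX3* at P9 and P10. *DLX1*, *DLX5* and *DLX6* had edgeR adjusted p values under 1% from P5 at the latest, when their means over both groups were still below 100 normalized counts. *DLX2* likewise had an edgeR adjusted p of 0.0061 at P8 and missed the minimum of the mean, so these steps depend on that minimum. The share of all genes called as higher was 7.26% at P7, 7.66% at P8 and 10.3% at P9.

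In the fractions, *DLX1* was higher in MES than in EPI in each of the 6 matched pairs. At P5 it had 2.77, 21.4 and 75.4 normalized counts in the EPI libraries of r1, r2 and r3 and 9.90, 119 and 454 in the MES libraries. The groups overlapped because the differentiations differed more than the fractions, but within each differentiation MES was higher, by 1.84, 2.47 and 2.59 on the log2 scale. At P8 it had 8.66, 102 and 469 in EPI and 39.6, 317 and 1078 in MES. The whole culture of the same differentiation and passage lay between its fractions in 6 of 6 cases. The fitted log2 fold changes were 2.42 at P5 (SE 0.22, edgeR adjusted p = 0.014) and 1.61 at P8 (SE 0.20, edgeR adjusted p = 0.23).

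No member, and none of the 18885 genes tested, was called between the fractions by edgeR (0% of all genes at either passage). At P5, 3 members had an unadjusted p under 0.05, as did 25.9% of all genes, and DESeq2 called 1, *DLX1*, among 674 genes. At P8, 2 members and 12% of all genes did, and DESeq2 called both, *DLX1* and *DLX2*, among 55 genes. *DLX1* was also called by edgeR at P5 when genes were not filtered on low counts (edgeR adjusted p = 0.0054). *DLX2* was higher in MES in 5 of 6 pairs, the exception being r1 at P5 with 4.16 normalized counts in EPI and 3.601 in MES, and its fitted log2 fold changes were 1.94 at P5 (SE 0.55, edgeR adjusted p = 0.066) and 2.15 at P8 (SE 0.48, edgeR adjusted p = 0.26).

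*MSX2* was higher in MES in 6 of 6 pairs, by 0.56 to 1.05 on the log2 scale, and *MSX1* in 4 of 6, by −0.25 to 1.04. The fitted differences of *MSX2* were 0.99 at P5 (SE 0.49, edgeR adjusted p = 0.25) and 0.57 at P8 (SE 0.49, edgeR adjusted p = 0.67). *MSX1* was abundant in both fractions, at 173 to 323 TPM in P5 EPI and 310.4 to 409 TPM in P5 MES. In r3 at P8 the whole culture lay outside its fractions, with 1079 normalized counts of *MSX2* against 4352 in EPI and 6462 in MES, and the whole culture also held less *MSX1* than either fraction. In r2 at P8 both genes were slightly lower in the whole culture than in EPI.

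*DLX5* and *DLX6* were not higher in MES. At P8, *DLX6* had 18.04, 326 and 792 normalized counts in EPI and 18.8, 190 and 359 in MES, so that r2 and r3 were lower in MES and r1 was nearly equal. Over both passages *DLX6* was lower in MES in 5 of 6 pairs and *DLX6-AS1*, whose reads may be shared with it, in 6 of 6. *DLX5* was lower in MES in 4 of 6 pairs, with 1711 and 3490 normalized counts in P8 EPI of r2 and r3 against 1093 and 2270 in MES. The fitted differences had edgeR adjusted p values from 0.46 to 0.97 for these 2 genes at both passages.

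*DLX3* and *DLX4* were under 2 TPM in all fraction libraries. *DLX4* was lower in MES in 5 of 6 pairs and *DLX3* in 4 of 6, with edgeR adjusted p values from 0.12 to 0.93. The difference between the passages in the effect of the fraction was tested as an interaction, and no member was called (0% of all genes), while 1, *DLX1*, had an unadjusted p under 0.05, as did 6.1% of all genes, and DESeq2 called none. The log2 difference of *DLX1* was −0.81 (SE 0.29, edgeR adjusted p = 0.82).

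**Figure D4:**
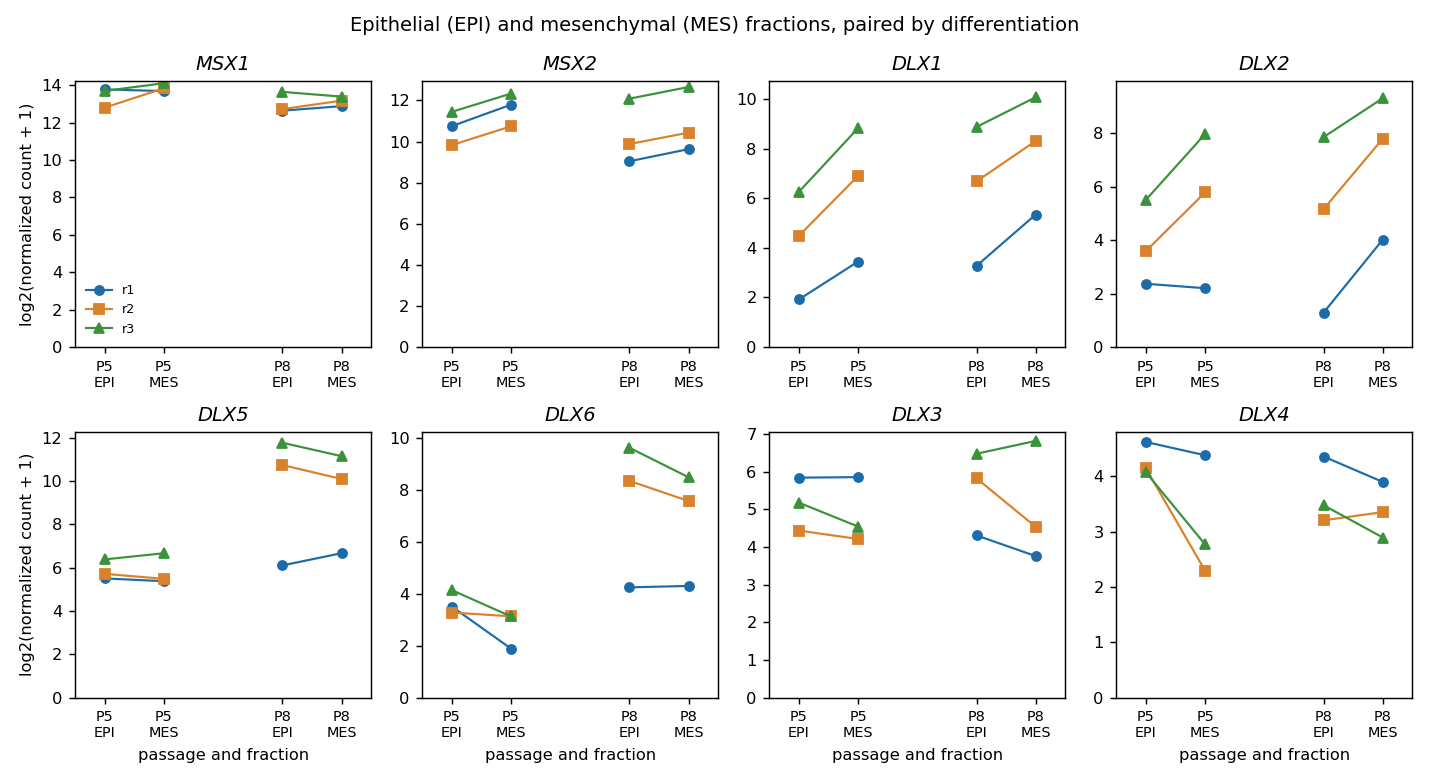
Normalized counts as log2(count + 1) on the y axis in the EPI and MES fractions of P5 and P8 on the x axis, with lines joining the libraries of 1 differentiation. *DLX1* rises from EPI to MES in 6 of 6 lines and *MSX2* in 6 of 6, while *DLX6* falls in 5 of 6.

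The fractions were checked against the cell type markers. The neural crest markers *SOX10*, *SNAI1* and *SNAI2* were higher in MES in 6 of 6 pairs and *SOX9* in 4 of 6. The sum of these 4 markers was higher in MES in each pair except r2 at P8, with 11557 normalized counts in MES and 14745 in EPI. Between the P8 fractions the ranges of this sum overlapped. The pre-neural epithelial markers *SOX2*, *CDX2* and *NKX1-2* were lower in MES in 6 of 6 pairs and *CDH1* in 4 of 6. *CDH1* had few reads at P5, with 4.85, 11.9 and 5.26 normalized counts in EPI and 1.80, 4.86 and 1.94 in MES. At P8 it was lower in MES in r2 only. The epithelial markers were not absent from MES, where they summed to 4427 to 12035 normalized counts at P5 against 23550 to 34438 in EPI. At P8 the sums of the fractions overlapped, with 2630 to 21682 in MES and 9857 to 31655 in EPI.

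Over the 47 libraries, the patterns of *DLX5* with *DLX6* and of *DLX1* with *DLX2* were the most alike among the members. On log2(normalized count + 1), Pearson's r was 0.95 for *DLX5* with *DLX6* and 0.95 for *DLX1* with *DLX2*, but 0.11 for *DLX3* with *DLX4*. *MSX1* and *MSX2*, which are not linked, had an r of 0.90. After the mean of each group was removed, r was 0.90 for *DLX5* with *DLX6*, 0.94 for *DLX1* with *DLX2* and 0.68 for *MSX1* with *MSX2*. Across the 2 DLX pairs, r ranged from 0.82 to 0.86. These values are descriptions, since the libraries share time points, differentiations and the order of r1 to r3 given above.

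**Figure D5:**
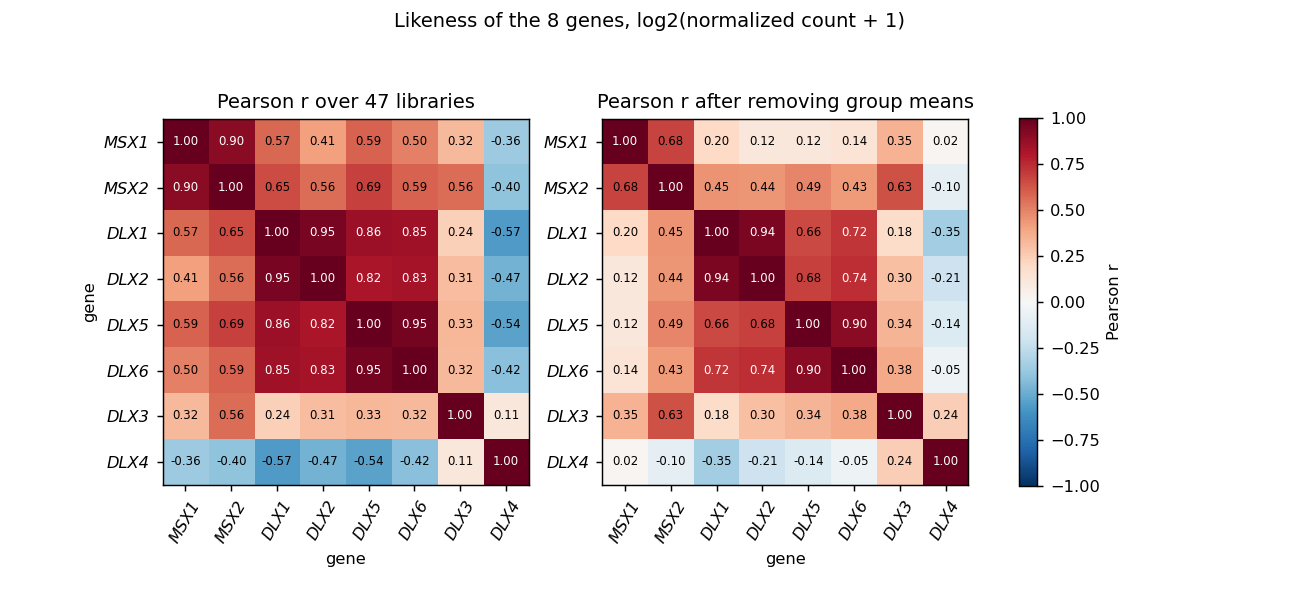
Pearson's r between each pair of the 8 genes on log2(normalized count + 1), over all 47 libraries on the left and after removing the mean of each of the 16 groups on the right. The neighbours *DLX1* with *DLX2* and *DLX5* with *DLX6* keep an r of at least 0.90 in both panels.

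Among 13289 other genes averaging 100 normalized counts or more, those most like each member were ranked by the same r over 47 libraries. For *DLX1* they were *MECOM*, *TBX2* and *PAG1* (r from 0.91 to 0.92), and for *DLX2* they were *TBX2*, *SPRED1* and *PPEF1* (0.89 to 0.92). For *DLX5* they were *CDK19*, *MKRN2* and *MBTPS1* (0.94 to 0.95), and for *DLX6* they were *PCOLCE2*, *EVX2* and *USP11* (0.93 to 0.94). For *MSX1* they were *ATOH8*, *TNRC18* and *NBPF9* (0.95 each), and for *MSX2* they were *PQLC1*, *TMSB15B* and *BMI1* (0.91 to 0.92). The T-box gene *TBX2*, the only gene named for 2 members, ranked first for *DLX2* by Spearman's rho as well, but 28 for *DLX1*. The ranking moved with the scale. On log2(TPM + 1), *MKRN2* fell from rank 2 to rank 306 for *DLX5* and *USP11* from rank 3 to rank 403 for *DLX6*.

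The BMP pathway was followed beside the members, with 23 genes listed and all 23 tested. Between t0 and 36h, when the MSX genes rose, 1 of the 23 was called as higher, the receptor-regulated SMAD *SMAD1* (log2 fold change 1.08, edgeR adjusted p = 0.0012), with 1.33% of all genes called as higher. Between 36h and P5, 9 were called as higher, led by the BMP antagonist *GREM1* (6.99, edgeR adjusted p = 1.7e-06) and the ligand *BMP6* (5.97, edgeR adjusted p = 2.2e-05), with 3.78% of all genes called as higher. *GREM1* went from 71.6 to 113 normalized counts at 36h to between 9534 and 11476 at P5, so the groups did not overlap.

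Between P8 and P9, when *MSX2* and *DLX3* rose, 4 of the 23 were called as higher, *BAMBI*, *ID1*, *ID3* and *SMAD6*, and 0.887% of all genes were. Calls at P9 against P8 leaned on the block, with 265 of 21750 genes called with it and 15 without it. Whether genes of this and the other lists kept their calls without the block is not given here. *ID1* and *ID3* are known targets of BMP signalling, and *BAMBI* and *SMAD6* are inhibitors that the pathway induces. *BAMBI*, a decoy receptor, went from between 89.4 and 657 normalized counts at P8 to 8323 and 14071 at P9 (log2 fold change 5.52, edgeR adjusted p = 0.0018). *ID1* went from between 482 and 2210 to 12054 and 14394 (4.23, edgeR adjusted p = 0.0018). Between P8 and P10 *BAMBI* was the 1 called (4.34, edgeR adjusted p = 0.0096), with P10 libraries from 642 to 19302.

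From t0 to P10, 18 of the 23 were called as higher, with 9.5% of all genes called as higher and a median log2 fold change of 3.12 over the list against 0.01 over all genes. The ligand *BMP4* changed the most among them, from 57.9 to 77.7 normalized counts at t0 to between 7264 and 37722 at P10 (log2 fold change 8.04, edgeR adjusted p = 4.2e-09), and *BMP5* was next (6.43, edgeR adjusted p = 3.1e-05). In P8 against P5 and in the fractions, where 2 and 0 of all genes were called by edgeR, no gene of this list was among them.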

How the data were processed

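RNA was measured in 35 whole cultures and 12 fractions of WA09 cells by polyA-selected, 75-base single-end sequencing. Per the submitters' processing notes, the authors trimmed reads with cutadapt 1.16, aligned them to GRCh38 with STAR 2.5.2b and quantified genes with RSEM 1.3.0. The authors deposited expected counts per gene, of which 9.33% are not whole because RSEM divides reads between genes, and TPM (transcript abundance corrected for length and depth). The annotation release and the strand setting are not given in the sources used here. Symbols and positions were taken from GENCODE 29, in which 57447 of 58051 gene IDs matched.

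Expected counts were rounded, scaled by TMM and tested in edgeR 4.0.16 (R 4.3.3) with glmQLFit and glmQLFTest after filterByExpr. The time course was fitted on 35 libraries (21750 genes) and the fractions on 12 libraries (18885 genes), blocking on differentiation, and p-values were adjusted by Benjamini-Hochberg across every gene tested. A call needed an adjusted p under 1%, a 2-fold or larger change and 100 or more normalized counts on average over the libraries compared. The limits are the numbers of the study, which applies the last to a base mean. Normalized counts are counts divided by TMM size factors over 47 libraries. The series design describes each experiment as running through all time points, so the number pairs libraries. Deviations from group means correlated at a mean r of 0.53 between P4 and P5 for the same number and −0.26 for other numbers, and at 0.78 and −0.38 between the P8 fractions, but at −0.01 and 0.00 between t0 and 36h. They were weaker between 36h and P1, at 0.21 and −0.11, and between P8 and P10, at 0.24 and −0.12. The lowest r for the same number was −0.12 and −0.09 there. The pairing of P9 with P8 or P10 was not checked in this way. No replicate pair agreed within sampling noise. All libraries come from 1 cell line, so p-values measure the spread between differentiations of it.

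In simulated data for P10 against P8, 22% of genes changed 2-fold, 90% of those changed 4-fold and 100% of those changed 8-fold were called, and for P8 MES against P8 EPI 40%, 98% and 100% were. The simulated counts had negative binomial spread around a single mean per gene and no differences between differentiations. These shares therefore do not tell how many real changes were missed. In the real P8 fractions, *DLX2* had a log2 fold change of 2.15 and was not called (edgeR adjusted p = 0.26). All 8 members were named in each comparison, with the 3 genes most like each member that averaged 100 normalized counts or more, and the 2 largest called changes of each list in each direction. The members and lists were chosen with earlier results of these data known. Alternatives were DESeq2 1.42.0, its size factors in edgeR, other filters, thresholds and libraries in the fit, no block, and leaving out each differentiation or P10.r1. Some items are not reported here.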

Additional observations from a re-analysis of the deposited data

How the results depend on the processing

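Of 130 alternative counts of members called, 95 stayed within 1.5 times the first count, 13 were higher and 22 lower. Of 667 alternative log2 fold changes, 598 kept direction and side of the threshold, and 21 turned direction, none of them a called value. Without the replicate block, that is without pairing by differentiation, 0 members were called for P5 against 36h (1656 of all genes, 1811 with the block) and 0 for P9 against P8 (15 of all genes, 265 with it), and the fitted values of *DLX5* between the P5 fractions (0.065) and of *DLX2* (−0.68), *DLX3* (0.057) and *DLX6* (−0.053) in the interaction turned direction. The block changed no other count of members called. DESeq2 called 1 member for P8 against P5, 2 for P10 against P8, 1 between the P5 fractions and 2 between the P8 fractions, among 155, 307, 674 and 55 genes in all, where edgeR called 2, 19, 0 and 0. With no count filter, 1 member was called for P5 against 36h, 1 for P9 against P8 and 1 between the P5 fractions. With at least 10 counts in every library, only genes expressed throughout are tested, which left *MSX1* as the 1 member tested. *MSX1* was called for 36h against t0, P5 against 36h, P10 against t0 and any change. For P9 against P8, 0 members were called, and *DLX3* and *MSX2* were not tested. With an adjusted p under 5%, 6 members were called for P9 against P8, 2 for P10 against P8 and 1 between the P5 fractions, among 904, 242 and 503 genes in all. With no minimum of the mean, 4 members were called for P5 against 36h, among 2948 of 21750 genes. With all 47 libraries in 1 fit, 1 was called for P10 against P8. With the compared libraries only, 0 were called for 36h against t0, P5 against 36h and P9 against P8, and 2 for P10 against t0, and *DLX4* in P10 against P8 was at −0.0031. Without P10.r1, 2 were called for P10 against P8, and *DLX4* in P10 against t0 was at 0.15. The cause of these changes was not tested. Where no count or share of all genes is printed beside a setting, here or elsewhere, the members called are not set against one.

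Leaving out each differentiation in turn gave 0 to 2 members called for 36h against t0, 0 to 1 for P5 against 36h, 0 to 1 for P8 against P5, 0 to 2 for P9 against P8 (where leaving out r1 or r2 leaves P9 with 1 library, assumed to vary like the other groups), 0 to 2 for P10 against P8 and 3 to 7 for P10 against t0. The log2 fold changes that turned direction then ranged from −2.07 to 2.57 for *DLX2*, −0.085 to 0.43 for *DLX3* and −0.78 to 4.43 for *DLX5* in 36h against t0. In P8 against P5 they ranged from −1.40 to 0.34 for *DLX3* and −0.54 to 0.11 for *DLX4*, and *DLX4* ranged from −1.41 to 1.54 in P10 against P8 and from −2.11 to 0.21 in P10 against t0. Between fractions they ranged from −0.19 to 0.041 for *DLX5* at P5, and from −1.18 to 0.13 for *DLX3* and −0.035 to 0.37 for *MSX1* at P8. In the interaction they ranged from −0.37 to 1.43 for *DLX2*, −1.14 to 0.27 for *DLX3* and −0.30 to 1.23 for *DLX6*. The 3 genes most like each member were ranked again by another measure, scale or set of libraries. Of these 18 alternative rankings, 11 kept fewer than 2 of the 3 genes. *DLX4* had a mean of 19.4 normalized counts, and *DLX6* exceeded 3 counts in 32 of 47 libraries.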

Other observations

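Genes that share embryonic sites with the DLX and MSX genes were counted in the same tests. Of the limb, arch and skeletogenic list, 9 of 20 genes tested were called as higher at P10 against t0, where 9.5% of all genes were called as higher and 8.79% as lower. The distal limb and tail genes *HOXD13* and *HOXA13* had the largest fitted changes, from almost no reads at t0, and the mesenchymal factor *PRRX1* had a log2 fold change of 10.68 (edgeR adjusted p = 3.6e-08). At P9 against P8 its relative *PRRX2* was the 1 called (6.46, edgeR adjusted p = 0.0032), and 0.887% of all genes were called as higher there. The summed level of the list was 26765 to 41948 normalized counts at P8 and 88624 to 90177 at P9, so the groups did not overlap.

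Of the neural plate border and dorsal neural tube list, 7 of 14 genes tested were called as higher at P10 against t0 (9.5% of all genes), led by *TFAP2B* and *TFAP2A* (10.01, edgeR adjusted p = 4.9e-06), AP-2 factors of the border and the crest. *TFAP2A* was also the 1 of 14 called at P9 against P8 (4.76, edgeR adjusted p = 0.0098), where 0.887% of all genes were called as higher. The median log2 fold change of the list was −0.56 there, against −0.0067 over all genes. Of the neural crest list, 3 of 13 genes tested were called as higher at P10 against t0 (9.5% of all genes) and 1 as lower (8.79%). Those higher were *TWIST1* (10.56), *SNAI2* (7.66) and *MITF* (5.54). *TWIST1* was the 1 of 13 called at P9 against P8 (3.89, edgeR adjusted p = 0.0098), while the median log2 fold change of this list was −0.73.

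Of the forebrain GABAergic list, in which *DLX1*, *DLX2*, *DLX5* and *DLX6* are best known, 2 of 10 genes tested were called as higher at P10 against t0 (9.5% of all genes), *SP9* and the GABA-synthesizing enzyme *GAD1* (4.99, edgeR adjusted p = 3.2e-04). *GAD1* was called already at 36h against t0 (7.40, edgeR adjusted p = 1.1e-04), when no DLX gene was. Of the surface ectoderm and placode list, 6 of 13 genes tested were called as lower at P10 against t0 (8.79% of all genes), among them the keratin *KRT19* (−6.67), and 1 as higher, *GRHL3* (4.68). The median log2 fold change of this list was nevertheless 0.91, against 0.013 over all genes, so the list did not move in a single direction. Of the trophoblast and amnion list, where *DLX3* and *DLX4* are also used, 1 of 6 genes tested was called as higher at P10 against t0 (9.5% of all genes), *TFAP2C* (4.43, edgeR adjusted p = 1.2e-05), which the neural plate border list also holds.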
